A study of Mus musculus with 32 samples.

Results

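The genes described here are those of the Reactome set for signalling to ERKs, as listed among the gene sets deposited with this experiment. The set lists 34 genes, of which 31 are among the 17757 genes of the deposited count table. The other 3 genes of the list, among them Rit2 and Shc3, were not counted. The set was picked from these same data, because its enrichment scores for ASP shSCR against the other conditions were the highest of all sets. How the polysomal to sub-polysomal ratio of ASP shSCR differed from the other conditions is therefore given as a description, with no test for these genes.

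Polysome profiling was performed on 4T1 spheroids, grown from a mammary carcinoma line of the mouse and kept for 5 days in lung-like medium. A sucrose gradient separated mRNA with more ribosomes (polysomal) from mRNA with few or none (sub-polysomal), and each fraction gave an mRNA library. ASP shSCR carried a non-targeting shRNA and received 700 μM aspartate, and NoASP shSCR carried the same shRNA without added aspartate. ASP shGRIN2D and ASP shDHPS received aspartate and carried an shRNA against Grin2d, a subunit of the NMDA receptor, or against Dhps, the enzyme of the first step of eIF5A hypusination. All lines were polyclonal, made with lentiviral vectors and selected with puromycin, so no untransduced line is among them. Each condition had 4 pellets with both fractions, 32 libraries in all, with total counts from 12870563 to 25639437.

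The ERK cascade carries signals from growth factor receptors at the membrane to the nucleus. Adaptors such as Shc1 and Grb2 recruit the exchange factor Sos1, which loads Ras proteins with GTP. Active Ras engages Raf kinases, Raf phosphorylates the MEK kinases (Map2k1 and Map2k2), and MEK phosphorylates the ERK kinases, among them Mapk3. The set also holds side branches, namely Rap and Ral GTPases, p38 kinases and their target kinases.

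The labels of the cells and of the knockdowns were checked first. All 8 epithelial markers were counted, and their summed level was 2279 to 8592 CPM (counts scaled to the normalized library size) in the 32 libraries, with Krt8 the most abundant at a median of 1088 CPM. Of 4 leukocyte markers 2 were counted, of which Ptprc stayed at or below 0.879 CPM and Cd68 ranged from 4.66 to 26.4 CPM. The single counted endothelial marker, Pecam1, reached at most 0.658 CPM, and of 3 fibroblast markers only Pdgfra was counted, at 6.58 to 35.6 CPM. In bulk libraries, fewer cells of a type and less RNA per cell cannot be told apart.

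Dhps, summed over both fractions, was at 34.4, 39.1, 39.0 and 35.9 CPM in ASP shSCR and at 9.48, 12.2, 10.6 and 8.80 CPM in ASP shDHPS, without overlap. Its log2 level difference was −1.85 ± 0.15 (SE, 4 pellets against 4, edgeR adjusted p = 6.34e-07). Grin2d was at 4.15, 3.09, 5.46 and 3.39 CPM in ASP shSCR and at 2.24, 1.42, 1.75 and 2.61 CPM in ASP shGRIN2D. All ASP shGRIN2D pellets were below all ASP shSCR pellets, but the log2 difference of −1.01 ± 0.24 missed the threshold of 0.05 over all genes (edgeR adjusted p = 0.0783). In ASP shDHPS minus ASP shGRIN2D the log2 level difference of Grin2d was 1.13 ± 0.24 and passed (edgeR adjusted p = 0.0252).

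Throughout, the ratio is the log2 of polysomal over sub-polysomal CPM within a pellet after normalization, so 0 is about the middle of all genes and not an equal number of molecules in both fractions. One library stood apart over all genes. On a scale over 11046 genes on which 0 is the mean sub-polysomal and 1 the mean polysomal library of the other conditions, ASP shSCR replicate 1 had its polysomal library at 0.372. For the other 15 polysomal libraries the range was 0.777 to 1.27, and for the 16 sub-polysomal ones −0.114 to 0.162. The values that this pellet moved most are also given without it.

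**Figure D1:**
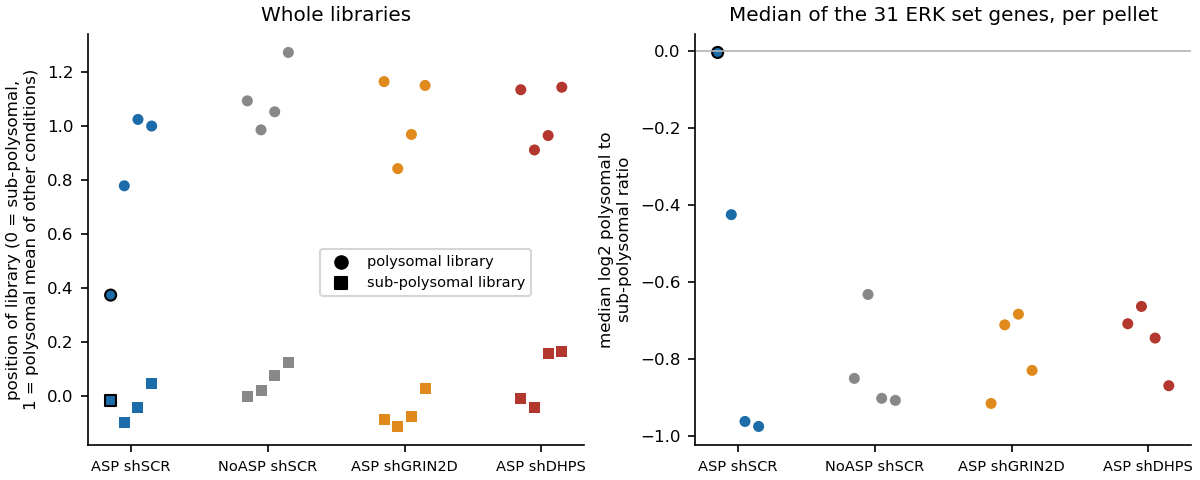
Left, position of each library between the sub-polysomal and polysomal means of the other conditions (circles, polysomal; squares, sub-polysomal); right, median log2 polysomal to sub-polysomal ratio of the 31 ERK set genes in each of the 16 pellets. The outlined points are ASP shSCR replicate 1, whose polysomal library lies at 0.372 and whose median ratio is about 0, above the −0.43 to −0.97 of the other 15 pellets.

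The genes differed widely from each other in how much of their mRNA was polysomal. The mean ratio over the 4 conditions is another quantity than the differences that chose the set, but it holds the same ASP shSCR pellets and is not independent of them. In ASP shSCR replicate 1 the ratio was nearer to 0 for 24 of the 31 genes. This raises ASP shSCR for genes on the sub-polysomal side, so the choice can favour such genes. Leaving the pellet out afterwards does not undo that, and the split by side is a description. The mean ratio passed the test for 27 of the 31 genes (edgeR, Benjamini-Hochberg over 17757 genes), as did that of 62.6% of all genes. Of these, 6 were on the polysomal side and 21 on the sub-polysomal side. Over all genes the split was 31.5% higher and 31.1% lower. Among the 10909 genes with a mean of at least 50 counts per library, which include 29 of the 31, it was 46.1% higher and 36.2% lower, with a median of 0.15. The median of the 31 genes was −0.77, against −0.06 for all genes, and −0.82 against −0.09 without ASP shSCR replicate 1.

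**Figure D2:**
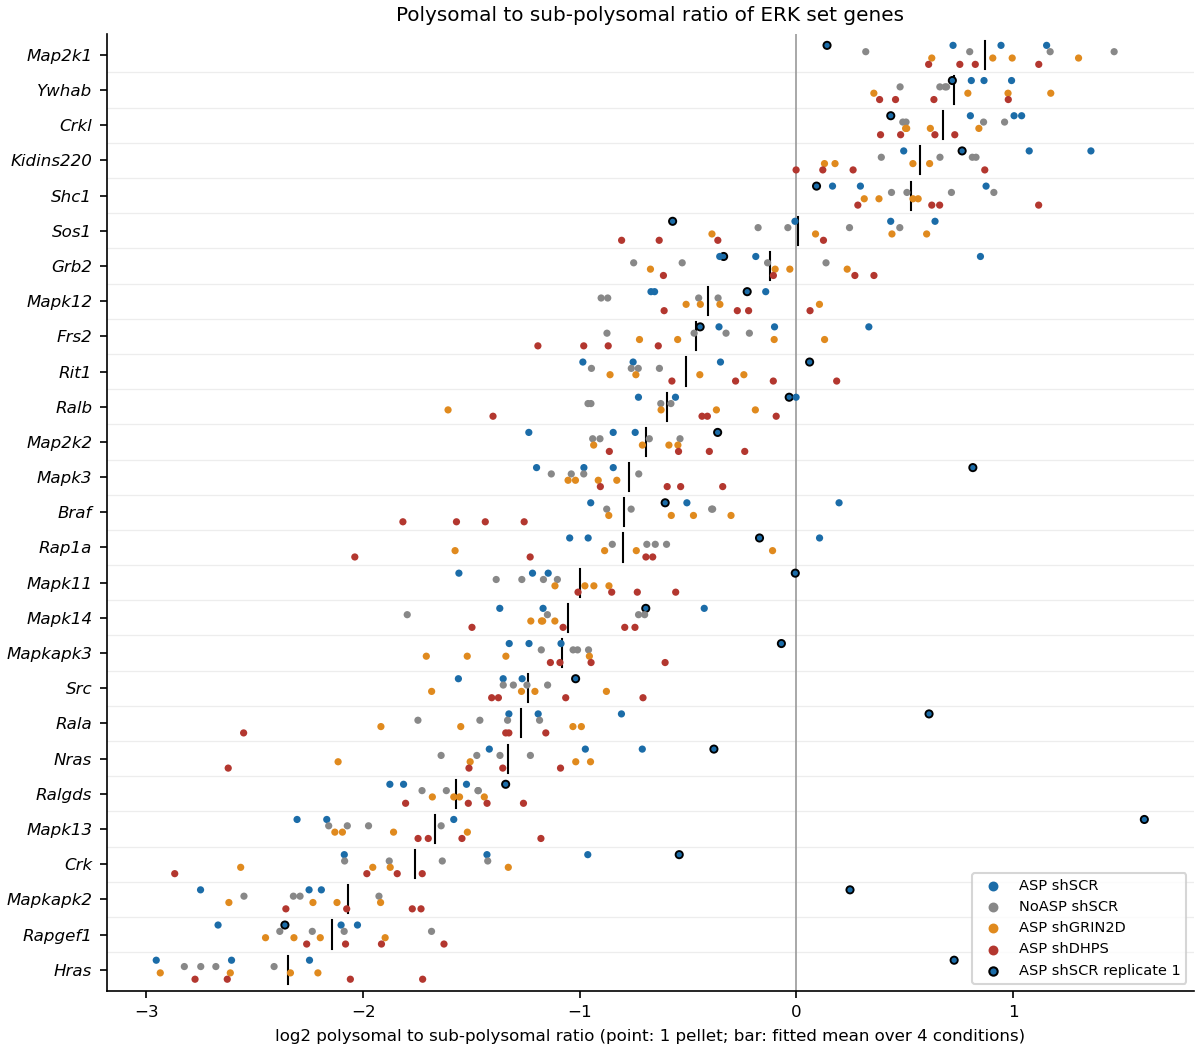
Log2 polysomal to sub-polysomal ratio (x axis) of 27 genes with a mean of at least 50 counts, 1 point per pellet coloured by condition, with the fitted mean over 4 conditions as a bar. Map2k1, Ywhab, Crkl and Shc1 are above 0 in all 16 pellets, whereas the outlined ASP shSCR replicate 1 lies far to the right of the other pellets for Mapk13, Hras, Mapkapk2 and Mapk3.

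Some related genes of the cascade stood on opposite sides in their mean ratio, and others on the same side at different distances from 0. The start codon regions of these relatives are shown because the start codon is where ribosomes begin and its surroundings differ between relatives, here with 9 bases before and 1 base after the start codon, which is in capitals (from GENCODE M21 transcripts on GRCm38):
Mapk3: ggagtggagATGg
Map2k1: ggctgcaagATGc
Map2k2: ggagccccgATGc
Crkl: cccaacaccATGt
Crk: gaggcggccATGg
Nras: tggtgtgaaATGa
Hras: gtagaagctATGa
The start codons lie in the first coding exon of each gene, on GRCm38, at chr7:126759646-126759648 (Mapk3, plus strand), chr9:64253290-64253292 (Map2k1, minus), chr10:81106147-81106149 (Map2k2, plus), chr16:17452478-17452480 (Crkl, plus) and chr11:75679424-75679426 (Crk, plus). Those of the Ras genes shown lie at chr3:103058922-103058924 (Nras, plus) and chr7:141192938-141192940 (Hras, minus). An A or G at the third base before the start codon was present in 29 of 31 genes (93.5%), against 86.1% of 13038 coding genes of the count table. A G just after the start codon was present in 35.5% of the 31 and 52.8% of all. These letters are a description and were not set against the ratios.

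The kinases of the last steps, MEK and ERK, came to lie on both sides. For Mapk3 (ERK1), the ratios, in the order of replicates 1 to 4 as for all such values, were 0.81, −0.85, −0.98 and −1.20 in ASP shSCR, −0.98, −0.73, −1.13 and −1.04 in NoASP shSCR, −0.91, −1.02, −1.05 and −0.83 in ASP shGRIN2D, and −0.53, −0.60, −0.34 and −0.90 in ASP shDHPS. The 15 pellets other than ASP shSCR replicate 1 were all on the sub-polysomal side. The mean ratio of Mapk3 was −0.77 ± 0.11 (SE, 16 pellets, edgeR adjusted p = 8.53e-07), and −0.92 without that pellet.

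Map2k1 (MEK1) gave 0.14, 0.94, 1.16 and 0.72 in ASP shSCR, 1.17, 1.47, 0.80 and 0.32 in NoASP shSCR, 1.30, 0.63, 1.00 and 0.91 in ASP shGRIN2D, and 1.12, 0.83, 0.75 and 0.61 in ASP shDHPS. Every pellet was above 0, with ASP shSCR replicate 1 the lowest, and the mean ratio was 0.87 ± 0.10 (edgeR adjusted p = 7.65e-09). Map2k2 (MEK2) gave −0.36, −0.74, −0.85 and −1.23 in ASP shSCR, −0.68, −0.54, −0.94 and −0.91 in NoASP shSCR, −0.94, −0.71, −0.59 and −0.55 in ASP shGRIN2D, and −0.40, −0.54, −0.24 and −0.86 in ASP shDHPS. Every pellet was below 0, and the mean ratio was −0.69 ± 0.09 (edgeR adjusted p = 6.92e-08).

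Within a pellet, the ratio of Map2k1 exceeded that of Map2k2 by 1.56 on the log2 scale on average (SD 0.43), in 16 of 16 pellets, and by 1.63 without ASP shSCR replicate 1. This pair, and the others compared in this way, were chosen after the values had been seen, so they carry no test. The difference was present in each condition, with means between 1.34 and 1.71.

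Among the adaptors, Crkl and Crk, whose proteins link phosphorylated docking proteins to exchange factors, were further apart still. Crk gave −0.54, −0.96, −2.09 and −1.43 in ASP shSCR, −1.88, −1.63, −1.42 and −2.09 in NoASP shSCR, −2.57, −1.96, −1.33 and −1.87 in ASP shGRIN2D, and −2.87, −1.98, −1.84 and −1.73 in ASP shDHPS. All of these were below 0, and the mean ratio was −1.76 ± 0.12 (edgeR adjusted p = 6.01e-13), or −1.86 without ASP shSCR replicate 1. Crkl was above 0 in all 16 pellets, from 0.39 to 1.04 with a median of 0.63, and its mean ratio was 0.68 ± 0.08 (edgeR adjusted p = 2.12e-08). The ratio of Crkl exceeded that of Crk by 2.44 on average (SD 0.59), in 16 of 16 pellets, and by 2.54 without ASP shSCR replicate 1.

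**Figure D3:**
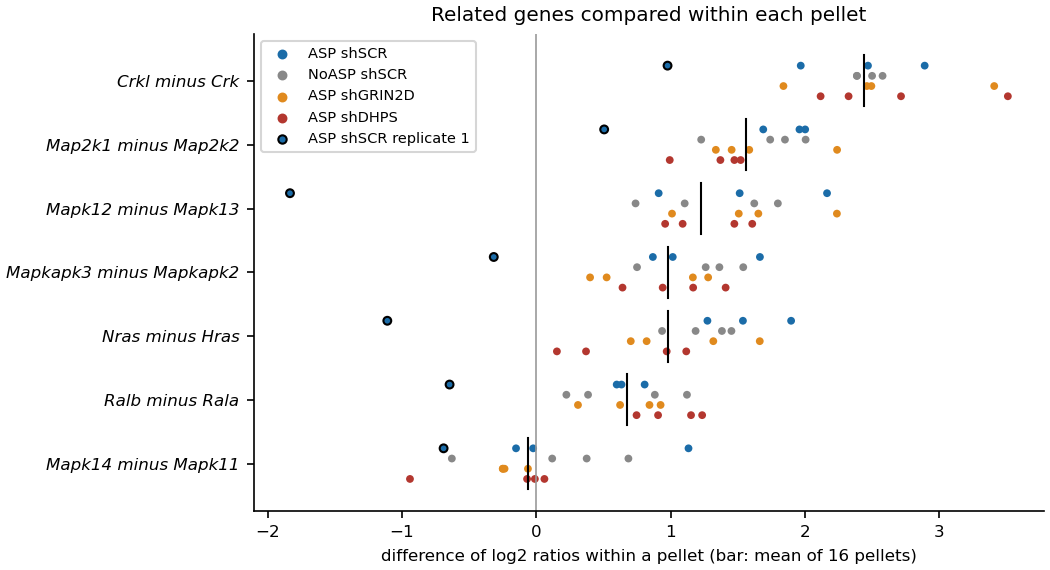
Difference of log2 polysomal to sub-polysomal ratio between related genes within a pellet (x axis), 1 point per pellet coloured by condition, with the mean of 16 pellets as a bar. Crkl minus Crk and Map2k1 minus Map2k2 are above 0 in all 16 pellets, and ASP shSCR replicate 1 (outlined) is the lowest pellet for 6 of the 7 pairs.

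Hras and Nras, whose products are GTP switches of the pathway, were both on the sub-polysomal side and differed in degree. Hras gave 0.73, −2.61, −2.95 and −2.25 in ASP shSCR, −2.83, −2.75, −2.68 and −2.41 in NoASP shSCR, −2.94, −2.34, −2.61 and −2.21 in ASP shGRIN2D, and −2.78, −2.63, −1.73 and −2.06 in ASP shDHPS. Apart from ASP shSCR replicate 1 the pellets lay between −2.95 and −1.73, and the mean ratio of −2.34 ± 0.18 (edgeR adjusted p = 5.82e-12) was the lowest of the set. It was −2.57 without that pellet.

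Nras gave −0.38, −0.71, −1.42 and −0.97 in ASP shSCR, −1.64, −1.37, −1.23 and −1.48 in NoASP shSCR, −2.12, −1.02, −0.95 and −1.51 in ASP shGRIN2D, and −2.62, −1.51, −1.36 and −1.09 in ASP shDHPS. Its mean ratio was −1.33 ± 0.11 (edgeR adjusted p = 6.93e-11). Within pellets Nras was above Hras by 0.98 on average, in 15 of 16 pellets, the exception being ASP shSCR replicate 1, and by 1.12 without that pellet.

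Upstream of Ras, the adaptor Grb2 and the exchange factor Sos1 were near the middle of all genes. Grb2 gave −0.34, 0.85, −0.35 and −0.19 in ASP shSCR, −0.13, 0.14, −0.75 and −0.53 in NoASP shSCR, −0.67, −0.03, 0.23 and −0.10 in ASP shGRIN2D, and −0.61, 0.36, 0.27 and −0.11 in ASP shDHPS. The conditions overlapped and both signs occurred, with a mean ratio of −0.12 ± 0.11 (edgeR adjusted p = 0.329). Without ASP shSCR replicate 2 it was −0.23 and passed. Sos1 gave −0.57, 0.44, −0.01 and 0.64 in ASP shSCR, −0.04, 0.25, 0.48 and −0.18 in NoASP shSCR, 0.60, 0.09, 0.44 and −0.39 in ASP shGRIN2D, and −0.36, 0.13, −0.81 and −0.63 in ASP shDHPS. It was above 0 in 8 and below 0 in 8 of the pellets, with a mean of 0.01 ± 0.10. Shc1, the adaptor that binds phosphorylated receptors, was at 0.09, 0.30, 0.88 and 0.17 in ASP shSCR, 0.72, 0.91, 0.44 and 0.51 in NoASP shSCR, 0.56, 0.38, 0.31 and 0.54 in ASP shGRIN2D, and 1.12, 0.66, 0.63 and 0.28 in ASP shDHPS, above 0 in every pellet, with a mean ratio of 0.53 ± 0.09 (edgeR adjusted p = 6.29e-06).

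Of the docking proteins, Kidins220, a scaffold of neurotrophin receptors, had a mean ratio of 0.57 ± 0.09 and Frs2, which docks at FGF and neurotrophin receptors, one of −0.46 ± 0.09. Both passed the test. The adaptor gene Shc2 had 0 to 6 counts per library. Its mean ratio, 1.37 ± 0.87 (0.95 without ASP shSCR replicate 1), did not pass, and another prior count moved single pellets by up to 1.71, so its pellet ratios are not listed.

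Rapgef1, an exchange factor for Rap proteins that binds Crk, was also far on the sub-polysomal side. It gave −2.36, −2.67, −2.03 and −2.10 in ASP shSCR, −2.23, −2.09, −1.68 and −2.38 in NoASP shSCR, −1.90, −2.32, −2.45 and −2.20 in ASP shGRIN2D, and −2.08, −1.92, −1.63 and −2.26 in ASP shDHPS. All conditions overlapped, ASP shSCR replicate 1 lay within the range of its group, and the mean ratio was −2.15 ± 0.09 (edgeR adjusted p = 6.47e-16). Ralgds, which activates Ral proteins, had −1.57 ± 0.08, from −1.88 to −1.26 in the 16 pellets. Among the other GTPases the mean ratios were −1.27 ± 0.13 for Rala, −0.60 ± 0.11 for Ralb, −0.80 ± 0.12 for Rap1a and −0.51 ± 0.09 for Rit1, and all 4 passed the test. Without ASP shSCR replicate 1, Rala was at −1.42. Ralb was above Rala in 15 of 16 pellets, by 0.67 on average, and by 0.76 without that pellet.

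Rala gave 0.61, −0.81, −1.33 and −1.19 in ASP shSCR, −1.75, −1.46, −1.33 and −1.19 in NoASP shSCR, −1.92, −1.03, −0.99 and −1.55 in ASP shGRIN2D, and −2.55, −1.34, −1.33 and −1.16 in ASP shDHPS. ASP shSCR replicate 1 was its single pellet above 0, and ASP shDHPS replicate 1 was the lowest.

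The mean ratios of the p38 branch were all on the sub-polysomal side. Mapk14 (p38α) had a mean ratio of −1.05 ± 0.10, Mapk11 (p38β) −0.998 ± 0.10, Mapk12 (p38γ) −0.41 ± 0.09 and Mapk13 (p38δ) −1.67 ± 0.18, and all 4 passed the test. Without ASP shSCR replicate 1, Mapk13 was at −1.90 and Mapk11 at −1.12. Within pellets, Mapk14 and Mapk11 differed by −0.06 on average (SD 0.50), with Mapk14 higher in 5 of 16. Mapkapk2, a kinase activated by p38, gave 0.25, −2.75, −2.19 and −2.25 in ASP shSCR, −2.32, −2.29, −1.93 and −2.55 in NoASP shSCR, −1.92, −2.23, −2.62 and −2.12 in ASP shGRIN2D, and −1.73, −2.08, −1.77 and −2.36 in ASP shDHPS. Outside ASP shSCR replicate 1 no pellet was above −1.73, and the mean ratio was −2.07 ± 0.15 (edgeR adjusted p = 1.96e-12), or −2.26 without it. Its relative Mapkapk3 had −1.08 ± 0.10 (−1.19 without that pellet) and was higher than Mapkapk2 in 15 of 16 pellets. Src, a tyrosine kinase at the membrane, had −1.24 ± 0.09.

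Ywhab, which encodes a 14-3-3 protein that binds Raf kinases, was at 0.72, 0.81, 0.99 and 0.87 in ASP shSCR, 0.69, 0.66, 0.48 and 0.69 in NoASP shSCR, 0.36, 0.98, 1.17 and 0.79 in ASP shGRIN2D, and 0.38, 0.98, 0.46 and 0.63 in ASP shDHPS. All pellets were above 0, and the mean ratio was 0.73 ± 0.08 (edgeR adjusted p = 1.95e-08).

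Braf, the Raf kinase of the set, had its lowest ratios in ASP shDHPS. It gave −0.61, −0.51, −0.95 and 0.20 in ASP shSCR, −0.39, −0.39, −0.76 and −0.88 in NoASP shSCR, −0.30, −0.58, −0.87 and −0.47 in ASP shGRIN2D, and −1.82, −1.44, −1.57 and −1.26 in ASP shDHPS. The 4 ASP shDHPS pellets lay between −1.82 and −1.26, below all 12 pellets of the other conditions, which lay between −0.95 and 0.20. Braf was the single gene of the 31 whose ASP shDHPS pellets were all below the 12 others, a pattern that 1.08% of all 17757 genes showed, and 0 of the 31 had them all above (0.186% of all genes). The 12 others include the ASP shSCR pellets, whose difference from ASP shDHPS was among those that chose the set, so these counts are a description. Against the 8 pellets of NoASP shSCR and ASP shGRIN2D alone, a rule added after the data were seen, Braf was again the single gene (1.53% of all genes). It was singled out after its values were seen.

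The fitted ratio of Braf in ASP shDHPS minus NoASP shSCR was −0.93 ± 0.28 and in ASP shDHPS minus ASP shGRIN2D −0.97 ± 0.28, and neither passed over all genes (edgeR adjusted p = 0.296 and 0.352). The libraries held 64 to 278 Braf counts. In ASP shDHPS, the polysomal libraries held 64, 110, 69 and 113 Braf counts and the sub-polysomal ones 277, 264, 223 and 238. Without ASP shSCR replicate 1 the differences were −0.91 and −0.97.

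No gene of the set passed the test for a ratio difference among the other 3 conditions. The choice of the set did not use these differences, though it used the same pellets. Between ASP shDHPS and NoASP shSCR, 0 of 31 passed (0% of all genes), and 2 had an unadjusted p under 0.05 (7.01% of all genes), Braf and Rit1, with 0.58 ± 0.25 for the latter. With ASP shSCR replicate 1 left out of the fit, Mapk11 and Sos1 were under it too (4 of 31, and 8.64% of all genes). DESeq2's Wald test called 0 of the 31 and 57 of all genes. Between ASP shGRIN2D and NoASP shSCR, 0 of 31 passed (0% of all genes), 0 had an unadjusted p under 0.05 (1.1% of all genes), and DESeq2 called 0 of the 31 and 0 of all genes. Between ASP shDHPS and ASP shGRIN2D, 0 of 31 passed (0.00563% of all genes, 1 gene, Zfp946), and 3 had an unadjusted p under 0.05 (6.41% of all genes), Braf, Frs2 and Sos1, with −0.61 ± 0.25 and −0.61 ± 0.29 for the last 2. DESeq2 called 0 of the 31 there and 37 of all genes. Median differences of the 31 genes were 0.07, 0.05 and 0.11, against 0.00, 0.00 and 0.01 for all genes.

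The differences that put the set at the top, ASP shSCR minus the other conditions, were small in the middle and uneven between genes. The median ratio difference of the 31 genes was 0.25 against NoASP shSCR, with 25 of 31 above 0. It was 0.20 against ASP shGRIN2D, with 21 above 0, and 0.23 against ASP shDHPS, with 22 above 0. Without ASP shSCR replicate 1 the medians were 0.14, 0.10 and 0.08, with 20, 17 and 18 genes above 0. These comparisons share the ASP shSCR pellets. Over all genes and with all pellets, the medians were −0.02, −0.01 and 0.01, and 48.3%, 48.8% and 50.8% of genes were above 0. For these comparisons edgeR called 0%, 0% and 0.208% of all genes, with 1.93%, 3.22% and 13.6% at an unadjusted p under 0.05. DESeq2 called 0, 0 and 664 of all genes.

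Against the mean of the other 3 conditions, the differences at the high end included Shc2 (2.20 ± 1.99), which has few counts, Rala (0.77 ± 0.29) and Crk (0.68 ± 0.27). The lowest were Shc1 (−0.23 ± 0.20), Rapgef1 (−0.19 ± 0.20) and Map2k1 (−0.17 ± 0.22). Without ASP shSCR replicate 1, Shc2 was at 0.69 ± 1.33, Rala at 0.32 ± 0.25 and Crk at 0.41 ± 0.26. Map2k1 was then at 0.002 ± 0.22, and the lowest were Mapk11 (−0.34 ± 0.20) and Map2k2 (−0.31 ± 0.20). The order of the genes changed with that pellet. Hras went from 0.62 ± 0.41 to −0.14 ± 0.23, Mapk13 from 0.55 ± 0.43 to −0.25 ± 0.21, Mapkapk2 from 0.37 ± 0.34 to −0.27 ± 0.21 and Mapk3 from 0.27 ± 0.26 to −0.20 ± 0.20. Kidins220 (0.47 and 0.50), Frs2 (0.43 and 0.50) and Braf (0.43 and 0.45) hardly moved. The number of genes above 0 went from 24 to 18 of 31, beside 49.8% of all genes with all pellets.

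**Figure D4:**
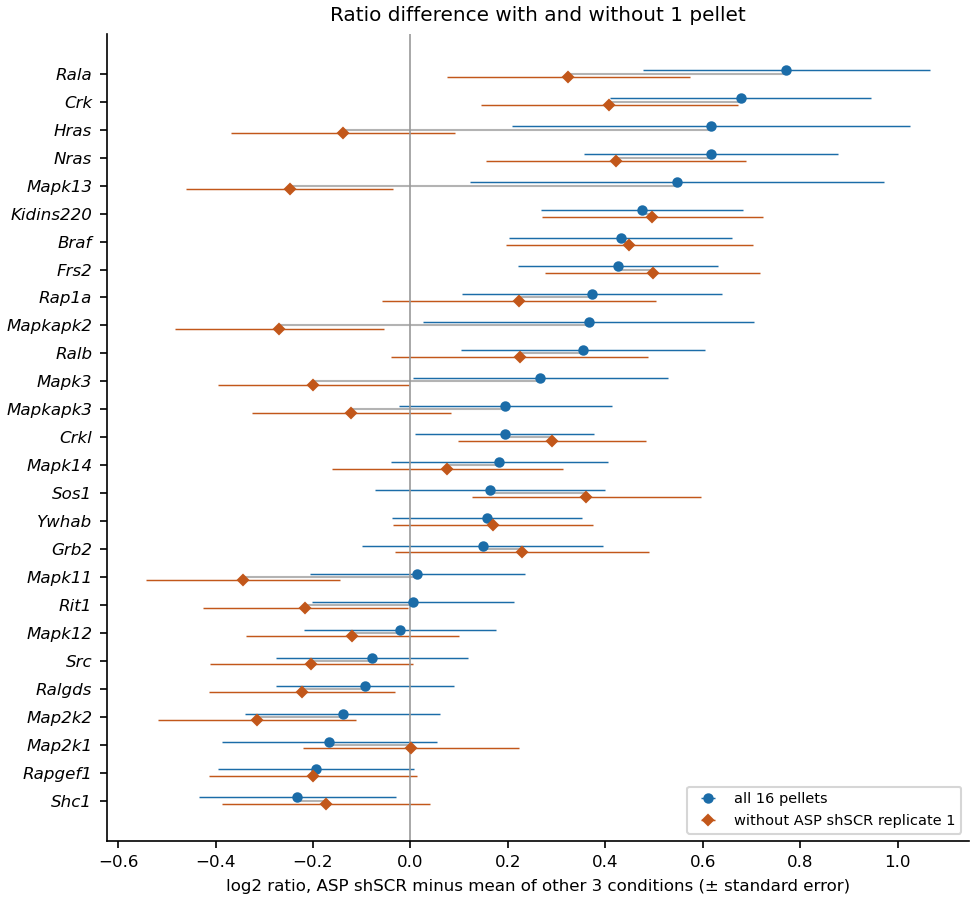
Difference in log2 polysomal to sub-polysomal ratio, ASP shSCR minus the mean of the other 3 conditions (x axis, ± standard error), for 27 genes with a mean of at least 50 counts, with all 16 pellets (circles) and without ASP shSCR replicate 1 (diamonds). Hras, Mapk13, Mapkapk2, Mapk3, Mapkapk3, Mapk11, Rit1 and Map2k1 change sign when that pellet is left out, the last 3 with one of their values near 0, whereas Kidins220, Braf and Frs2 stay between 0.43 and 0.50.

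In ASP shSCR replicate 1 itself, 23 of the 31 ratios lay outside the range of the other 3 ASP shSCR pellets, 16 above and 7 below. The set was chosen for high ratios in ASP shSCR, which hold this pellet. That favours values above the range here, so these counts are a description. Of all genes, 25.2% were above and 35.1% below, while the shares among genes averaging 50 counts or more were 21.8% and 41.1%. The ratio was nearer to 0 than the mean of the other 3 pellets for 24 of 31 (77.4%, against 56.7% of all genes), and on the other side of 0 for 9 (29%, against 34%). Among genes averaging 50 counts or more, these 2 shares were 63.9% and 27.2%. Mapk13 was at 1.61, against −2.30 to −1.58 in the other ASP shSCR pellets. Hras was at 0.73 against −2.95 to −2.25, Mapkapk2 at 0.25 against −2.75 to −2.19, and Mapk3 at 0.81 against −1.20 to −0.85.

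The shift was in the polysomal library. Mapk13 was at 536 CPM in the polysomal library of this pellet and at 35.4 to 70.8 CPM in the other 15, whereas its sub-polysomal 176 CPM lay within the 122 to 257 CPM of the others. Hras was at 311 CPM in the polysomal library against 21.3 to 50.7 CPM, and at 188 CPM in the sub-polysomal one against 133 to 226 CPM. Mapkapk2 was at 314 CPM against 40.5 to 70.4 CPM in the polysomal libraries, and Mapk3 at 564 against 122 to 243 CPM. The polysomal values of Mapk13, Hras, Mapkapk2 and Mapk3 in this pellet thus exceeded its own sub-polysomal values. Over the set, 13 of the 31 genes were above and 3 below all 15 other polysomal libraries, and 0 were outside the range of the 15 other sub-polysomal libraries. Of all genes, 15.1% were above and 14.8% below in the polysomal library, and 3.68% above and 4.34% below in the sub-polysomal one. The choice of the set favoured high values in this polysomal library, so the counts of the 31 are again a description.

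Levels, summed over both fractions of a pellet, also hold this library. Per kilobase of transcript, Mapk3 was the most abundant gene of the set (124 CPM per kb, median of 16 pellets), followed by Ywhab (87.8), Map2k2 (84.6), Nras (61.0) and Shc1 (60.7). Hras was at 35.2 and Map2k1 at 28.8 CPM per kb. At the low end were Braf (1.04) and Shc2 (0.0171 CPM per kb). Together the 31 genes took 0.218% to 0.369% of the counts of a polysomal and 0.348% to 0.432% of those of a sub-polysomal library, and ASP shSCR replicate 1 had the highest polysomal share.

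No level of the set passed the edgeR test with all pellets. The levels are not fully independent of how the set was chosen, since they hold the ASP shSCR pellets too. Against ASP shSCR, 0 of 31 genes were called in NoASP shSCR (0% of all genes), 0 in ASP shGRIN2D (0.327%) and 0 in ASP shDHPS (0.389%), with 9, 8 and 7 at an unadjusted p under 0.05. Of all genes, 7.39%, 10.1% and 13.4% were under it. These counts fell to 1 (Shc2), 2 (Crkl and Mapk14) and 3 (Mapk3, Rap1a and Shc2) of 31 without ASP shSCR replicate 1, against 2.84%, 8.8% and 12.6% of all genes. DESeq2 called 0, 0 and 1 of the 31, and 0, 258 and 397 of all genes. The 1 was Mapk3 (adjusted p = 0.0371), which also passed in edgeR with a replicate block (adjusted p = 0.0246), as did 728 of all genes. Between ASP shDHPS and ASP shGRIN2D, a comparison without ASP shSCR, 0 of 31 were called (0.749% of all genes), 2 had an unadjusted p under 0.05 (9.83% of all genes), and DESeq2 called 0 of the 31 and 281 of all genes. These 2 were Rap1a (−0.42 ± 0.19) and Shc1 (0.30 ± 0.14).

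The levels furthest below ASP shSCR in NoASP shSCR were those of Mapk13 and Hras, which were highest in ASP shSCR replicate 1. Mapk13 was at 349, 135, 101 and 90.6 CPM in ASP shSCR and at 95.0, 104, 98.1 and 81.4 CPM in NoASP shSCR. Its log2 level difference of −0.84 ± 0.28 was −0.21 without ASP shSCR replicate 1. Hras was at 254, 98.8, 116 and 89.8 CPM in ASP shSCR and at 88.9, 77.1, 107 and 72.3 CPM in NoASP shSCR, a difference of −0.69 ± 0.24, and −0.24 without that pellet. Mapk3 was at 449, 320, 226 and 231 CPM in ASP shSCR and at 195, 203, 221 and 176 CPM in ASP shDHPS. The lowest ASP shSCR value, 226 CPM, was close to the highest ASP shDHPS value, 221 CPM. The log2 level difference of Mapk3 was −0.62 ± 0.18, or −0.38 without ASP shSCR replicate 1.

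**Figure D5:**
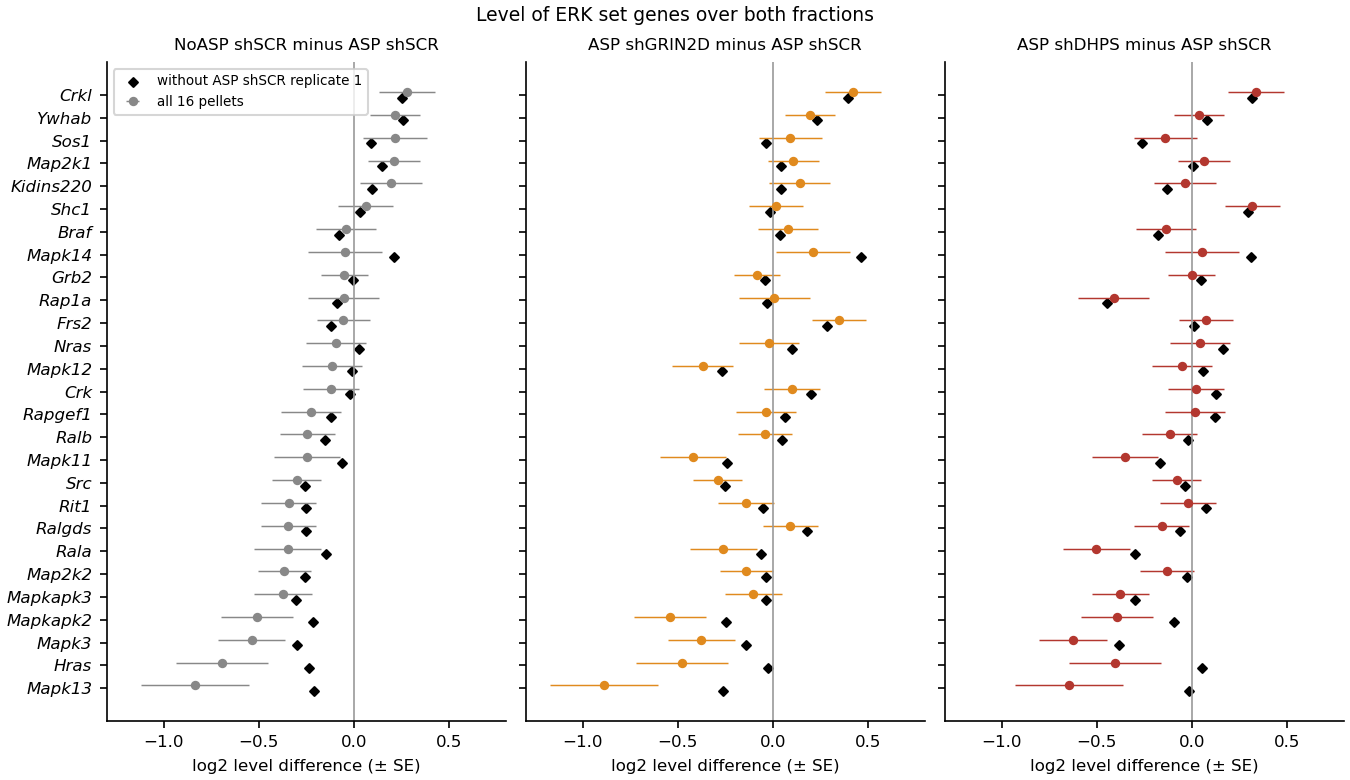
Log2 level difference from ASP shSCR (x axes, ± standard error) of 27 genes with a mean of at least 50 counts, both fractions summed, in NoASP shSCR, ASP shGRIN2D and ASP shDHPS; diamonds show the value without ASP shSCR replicate 1. Mapk13 lies at −0.84, −0.89 and −0.65 with all pellets and at −0.21, −0.26 and −0.02 without that pellet.

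Other genes of the pathway, outside the set, stood on both sides in their mean ratio, in lists chosen with earlier results of these data known. Of 13 upstream receptors, 12 were counted, of which 8 were on the polysomal and 2 on the sub-polysomal side, beside the 31.5% and 31.1% of all genes that apply to each of these lists. Fgfr2 was highest at 1.397 ± 0.096, followed by Pdgfra at 0.99 ± 0.09 and Erbb3 at 0.64 ± 0.10, and Axl was lowest at −1.17 ± 0.10. The list of ERK feedback and target genes gave 9 higher and 9 lower of 19. Dusp6, an ERK phosphatase (1.16 ± 0.12), Ier3 (1.07 ± 0.09) and Myc (0.97 ± 0.11) were the highest. Dusp7, another ERK phosphatase (−2.37 ± 0.14), Dusp5 (−1.75 ± 0.16) and Spry2, an inhibitor of receptor signalling (−1.72 ± 0.15), were the lowest.

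Of 18 ERK effectors, 3 were higher and 11 lower, with Rps6ka5 at 0.71 ± 0.11 and Elk1, a transcription factor phosphorylated by ERK, at −2.71 ± 0.20. Of 14 Ras regulators, 12 were counted, 2 higher and 6 lower. Lztr1, which promotes Ras degradation, was at 0.74 ± 0.11. None of the genes of these 4 lists passed the edgeR test in any comparison of ratio or level between conditions, and the highest count at an unadjusted p under 0.05 was 6 of the 12 Ras regulators, in the ratio of ASP shSCR minus ASP shDHPS (13.6% of all genes). It was 4 without ASP shSCR replicate 1 (also 13.6%).

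Coding length was compared with the ratio as well. Over the 31 genes, Spearman's rho between coding length and mean ratio was 0.17, and over 13424 coding genes it was 0.18. These are descriptions across genes of the same libraries. The median coding length was 1098 bases in the set and 1344 bases over all.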

How the data were processed

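According to the labels and the study's Methods, the authors trimmed paired reads with Trim Galore (0.6.6), checked them with FastQC (0.11.9), aligned them to GRCm39 with STAR (2.6.1) and quantified them with Salmon (1.4.0). The deposited counts per gene were rounded by the authors to whole numbers and are not normalized. The authors removed genes without expression in most replicates of every group. Because reads shared by near-identical copies are divided by estimation, values of gene families may hold such reads. The deposited gene set list was used for membership. The deposited columns of the authors' own comparisons (log2 fold changes, p-values, scores, made with DESeq2 1.34.0) were not used.

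Ratios were fitted with edgeR (4.0.16, quasi-likelihood, TMM) in R 4.3.3, with a coefficient per pellet and, per condition, the log2 ratio of polysomal to sub-polysomal counts, and levels on the summed counts of both libraries of a pellet. Both fractions of a pellet are matched in the Methods. Tests were two-sided, with Benjamini-Hochberg adjustment over 17757 genes and a threshold of 0.05. Pellet values used a prior count of 2. DESeq2 (1.42.0) and limma (3.58.1) served as alternatives, with other normalizations, count filters, replicate blocks and each pellet left out in turn. The steps were tested on simulated data. Library totals were 12870563 to 25639437, and 29 of the 31 genes had at least 10 counts in every library.

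The members and the lists of other genes were chosen with earlier results of these data known. Values per pellet are given for the core chain from Grb2 to ERK, for up to 3 genes per direction that passed the test and averaged at least 50 counts, for the 5 highest and 3 lowest differences of ASP shSCR from the other conditions (except Shc2, which had few counts), and for the knockdown targets. Crkl, Mapk13 and the pairs of related genes were added after their values were seen. Transcript lengths and start codons came from GENCODE M21 on GRCm38, since no GRCm39 annotation was used here. Pellets are called independent in the Methods. Some genes of the set and of the lists are not reported here.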

Additional observations from a re-analysis of the deposited data

Results flagged for a closer look

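In 248 groups of 4 pellets (31 genes, 4 conditions, ratio and level), 8 had a pellet far from the other 3 by Dixon's criterion, and chance gives about 12.4. For the log2 ratio, these were Grb2 in ASP shSCR replicate 2 at 0.85 (others −0.35 to −0.19), Rala in ASP shDHPS replicate 1 at −2.55 (others −1.34 to −1.16), Ywhab in NoASP shSCR replicate 3 at 0.48 (others 0.66 to 0.69) and Shc2, with few counts, in NoASP shSCR replicate 4 at 0.62 (others near 0). For the summed level, they were Mapk13 in ASP shDHPS replicate 4 at 89.1 CPM (others 112 to 117), Ralb in the same pellet at 85.4 CPM (others 108 to 110), Rit1 in ASP shGRIN2D replicate 2 at 62.8 CPM (others 51.1 to 51.9) and Src in ASP shDHPS replicate 1 at 170 CPM (others 132 to 134). None of the 8 was in ASP shSCR replicate 1. With groups of 4, the criterion thus missed the pellet that stood apart over all genes, so the low count does not mean that no pellet was unusual.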

How the results depend on the processing

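The mean ratios of the 31 genes kept their direction and side of the threshold in 679 combinations of gene and alternative and changed it in 1, Grb2, which passed without ASP shSCR replicate 2 (−0.23). With each pellet left out in turn, 27 to 28 of the 31 passed, and 10781 to 11168 of all genes. A separate, smaller tally for ratio differences did not cover every gene and comparison. In it, 168 combinations were unchanged and 6 moved. Counts over all genes between conditions moved more. For ASP shDHPS minus NoASP shSCR the ratio count was 5 with at least 10 counts in every library, 57 with DESeq2, 123 with only the compared conditions and 1 with a replicate block across conditions, and 0 to 4 with pellets left out (4 without ASP shSCR replicate 1). It was 1 for ASP shGRIN2D minus NoASP shSCR with only the compared conditions. For ASP shDHPS minus ASP shGRIN2D it was 2 with the count filter, 37 with DESeq2, 0 with only these conditions or with no replicate block for the pellet, and 0 to 1 with pellets left out (0 without NoASP shSCR replicate 1). For ASP shSCR minus ASP shDHPS it was 0 with DESeq2 size factors, with no replicate block or with only these conditions, 266 with the count filter, 664 with DESeq2, 231 with a replicate block across conditions, and 0 (without ASP shSCR replicate 4) to 159 (without ASP shGRIN2D replicate 1) with pellets left out. Level counts were 258 (DESeq2) and 331 (replicate block) for ASP shGRIN2D minus ASP shSCR, and 28 to 75 with pellets left out. They were 397, 728 and, with sub-polysomal libraries only, 251 for ASP shDHPS minus ASP shSCR, and 18 (without ASP shDHPS replicate 4) to 113 (without ASP shSCR replicate 3) with pellets left out. They were 281 and 431 for ASP shDHPS minus ASP shGRIN2D, and 47 (without ASP shDHPS replicate 3) to 149. Of the 31 genes, 1 (Mapk3) passed in the level of ASP shDHPS minus ASP shSCR with DESeq2 and 1 (Mapk3) with the replicate block. The labels give no pairing of pellets across conditions. Pellets with the same number correlated in ratio at a median of 0.166 (24 pairs, 14 over 0.1) and in level at 0.327 (19 of 24 over 0.1). The causes of these changes were not tested. Genes with few counts, such as Shc2, are limited by depth.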
